A study of Mus musculus with 12 samples.

Results

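The genes described here are 10 surface and mesenchymal markers by which mesenchymal stromal cells (MSCs) are recognised, namely Pdgfra, Pdgfrb, Eng, Nt5e, Thy1, Ngfr, Nes, Cdh2, Cd44 and Prrx1. All probe sets that the platform annotation gives to 1 of these symbols alone were taken, which gave 29 of the 45037 probe sets and 10 of the 18193 named genes on the array. The arrays held RNA of 6 co-cultures of MSCs with hematopoietic stem cells (HSCs) and of 6 cultures of MSCs alone, called co-culture 1 to 6 and MSC-only 1 to 6, all taken on day 6. Every well received 3000 MSCs, together with 7000 HSCs in the co-cultures and 0 in the MSC-only wells. Both groups came from bone marrow of mice labelled as male C57BL6/J aged 6 weeks, with no further allele or agent in the labels. The authors' methods, however, describe MSCs for co-culture as taken from mice carrying green fluorescent protein. The MSCs had been sorted for PDGFR-α and Sca-1 and against CD31, CD45 and TER119, and the HSCs for c-Kit and Sca-1 and against lineage markers. A sort on green fluorescence after co-culture was described for flow cytometry, but no sort before RNA extraction was described. The sources used here do not give the kind of co-culture (direct or through a membrane) that went onto the arrays, nor do they say which cultures came from separate mice, so p-values measure only the spread between these samples.

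MSCs of the bone marrow are rare perivascular cells that can form bone, cartilage and fat and that provide the niche of HSCs. They have no single defining protein and are recognised by a panel. PDGFR-α and PDGFR-β are receptor tyrosine kinases for platelet-derived growth factors, endoglin (Eng, CD105) is a co-receptor for TGF-β family ligands, and CD73 (Nt5e) is the surface enzyme that makes adenosine from AMP. CD90 (Thy1) is a lipid-anchored glycoprotein, CD271 (Ngfr) a low-affinity neurotrophin receptor, CD44 a receptor for hyaluronan that leukocytes carry as well, and N-cadherin (Cdh2) a cell adhesion molecule. Nestin (Nes) is an intermediate filament protein and Prrx1 a homeodomain transcription factor of limb and stromal mesenchyme.

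The promoters of Pdgfra, Prrx1 and Cd44 are shown because the first pair of these genes moved together across the arrays while Cd44 moved against them. The sequences are from RefSeq on GRCm38.p6, where 7 of the 10 genes were listed, and each holds 300 bases, 250 before and 50 after the start. Capitals mark TAAT, the core that many homeodomain proteins bind, and GGGCGG, the GC box, on either strand.
Pdgfra, chr5:75152001-75152300 (+): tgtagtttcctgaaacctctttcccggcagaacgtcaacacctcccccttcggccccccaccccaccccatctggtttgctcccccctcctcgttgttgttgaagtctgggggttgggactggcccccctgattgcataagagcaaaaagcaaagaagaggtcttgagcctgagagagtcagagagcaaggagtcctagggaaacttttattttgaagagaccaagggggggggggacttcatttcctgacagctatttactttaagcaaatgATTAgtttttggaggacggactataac
Prrx1, chr1:163313601-163313900 (-): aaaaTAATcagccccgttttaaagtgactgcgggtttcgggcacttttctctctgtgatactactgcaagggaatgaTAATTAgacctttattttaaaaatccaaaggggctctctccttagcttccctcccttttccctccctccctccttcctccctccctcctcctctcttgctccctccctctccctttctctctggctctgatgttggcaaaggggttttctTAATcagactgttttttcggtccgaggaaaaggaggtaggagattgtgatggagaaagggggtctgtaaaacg
Cd44, chr2:102901616-102901915 (-): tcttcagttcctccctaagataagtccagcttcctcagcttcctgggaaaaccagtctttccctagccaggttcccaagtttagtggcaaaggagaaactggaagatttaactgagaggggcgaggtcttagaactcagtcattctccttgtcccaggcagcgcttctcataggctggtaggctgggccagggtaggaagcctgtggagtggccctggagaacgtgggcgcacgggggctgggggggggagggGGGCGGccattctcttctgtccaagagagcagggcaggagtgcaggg
TAAT was found 1 time in the Pdgfra promoter, 4 times in that of Prrx1, where 2 of the matches overlap as TAATTA, and 0 times in that of Cd44. It occurred in 58% of the 32851 promoters of this length. GGGCGG was found 1 time in the Cd44 promoter and 0 times in the other two, against 35.7% of all promoters. CCAAT (in 37.4% of all promoters), TATAAA (13.6%) and TGANTCA (7.81%, N being any base) were found 0 times on either strand of these promoters. The GC content was 51% for Pdgfra, 47.7% for Prrx1 and 58% for Cd44, with a median of 52.7% over all promoters. These matches are descriptions of the letters only.

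Before the marker genes are compared, the arrays themselves need a description, because they did not all match their label. Xist, the transcript of the inactive X chromosome of female cells, and Eif2s3y, a gene of the Y chromosome, were both present in co-cultures 1, 2, 5 and 6, with 13136 to 16604 signal units of Xist and 1022 to 1331 of Eif2s3y. MSC-only 1, 2, 5 and 6 had 60.5 to 117.6 units of Xist and 2604 to 2845 of Eif2s3y. The arrays numbered 3 and 4 had 17840 and 17369 units of Xist in co-culture and 21978 and 16810 in MSC-only, with Eif2s3y at 13.6 units or below in all 4. In the arrays numbered 1, 2, 5 and 6 this difference goes with the group and cannot be told apart from it. In the arrays numbered 3 and 4 both groups carried the same pattern. Results are therefore given for all 12 arrays, for the 8 numbered 1, 2, 5 and 6, and for the 4 numbered 3 and 4. A second division cut across the groups. The first principal component (21.6% of the variance) put co-cultures 1, 4 and 6 with MSC-only 2, 4 and 6 on its positive side (scores from 28.7 to 46.8) and the other 6 arrays on its negative side (from -46.4 to -31.9).

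The panel fell into a well measured and a dim part. Signal is the deposited linear value of a probe set as scaled by the authors' software, and a gene is represented by its brightest probe set. The brightest probe sets of Pdgfra, Pdgfrb, Prrx1, Cd44, Cdh2, Eng and Nes lay above the array's own median signal (74.8 to 89.0 units) on all 12 arrays. Thy1 did so on 2 arrays, and Nt5e and Ngfr on 0. Whether the dim values hold signal or background was not tested.

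**Figure D1:**
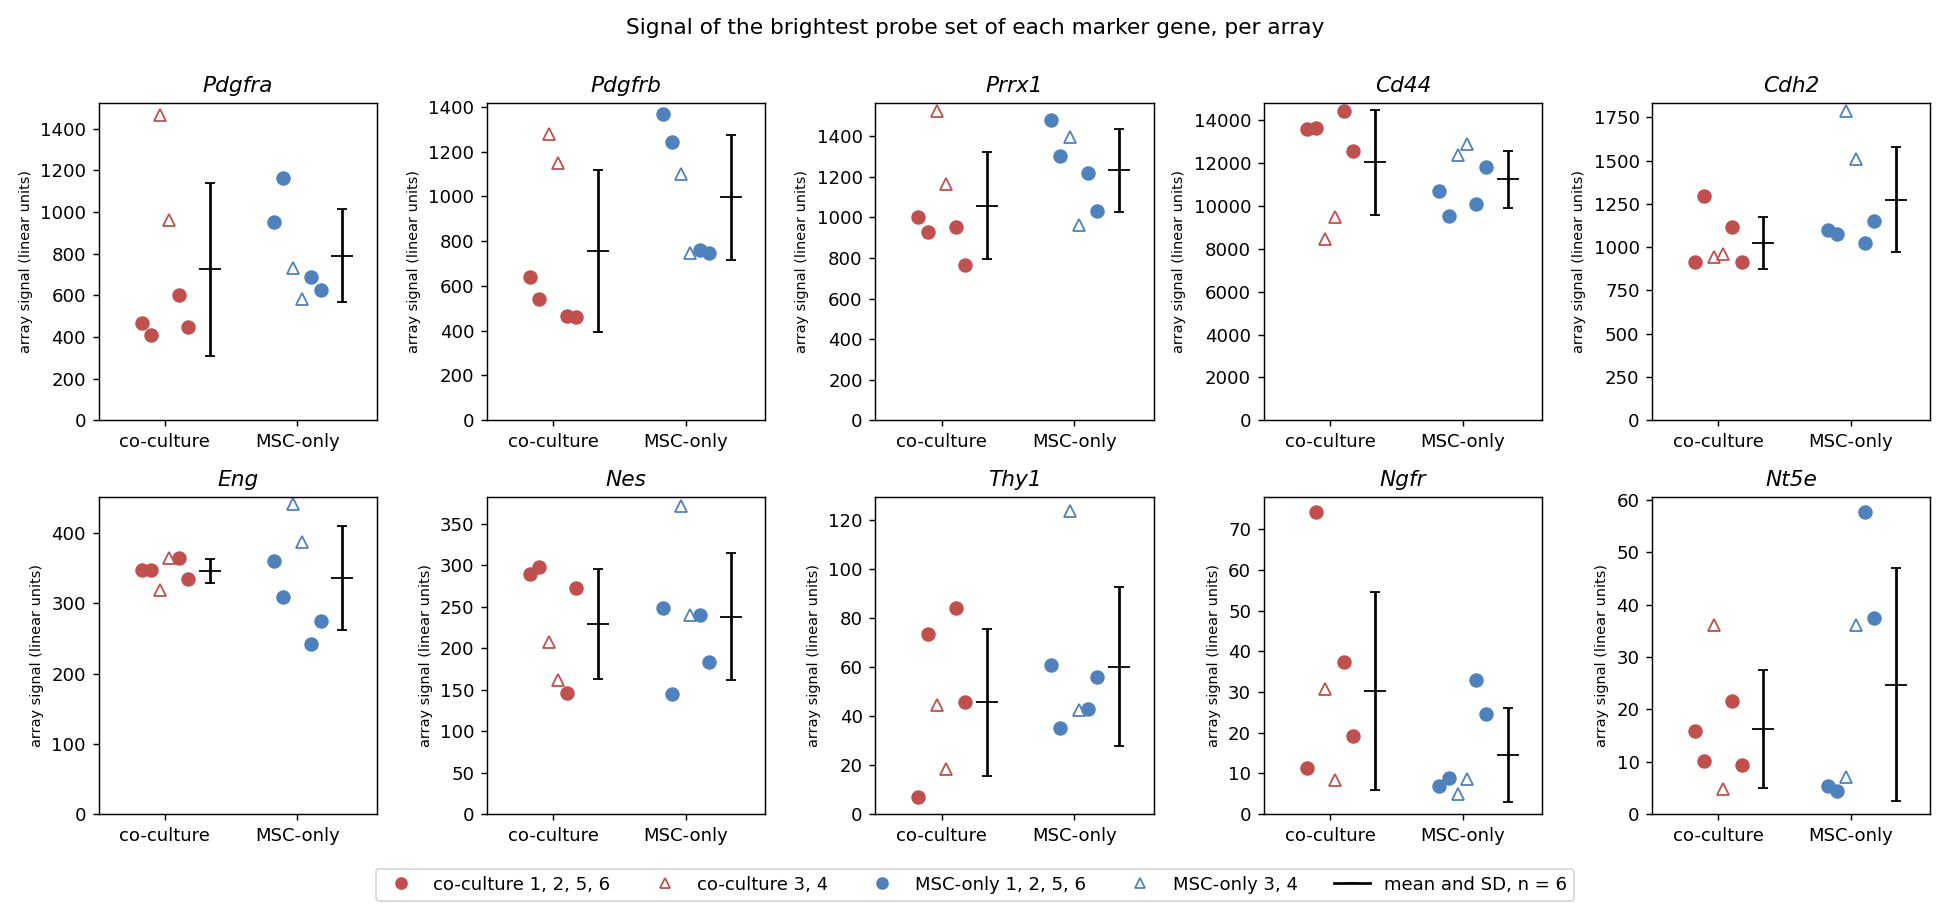
Signal in linear units (vertical axes, from 0) of the brightest probe set of each marker gene, with co-cultures on the left and MSC-only cultures on the right of each panel. Filled circles are the arrays numbered 1, 2, 5 and 6, open triangles those numbered 3 and 4, and the bars give mean and SD of 6 arrays; in the Pdgfra panel the open triangles of the co-cultures (1464 and 962 units) stand above the 4 filled circles of that group (407 to 600 units).

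Over all 12 arrays the co-cultures and the MSC-only cultures did not separate for any marker. Of the 29 probe sets 0 passed limma at an adjusted p of 0.05, where 0.00444% of all probe sets did, and 0 had an unadjusted p under 0.05, against 4.36% of all. In 0 of 29 the groups did not overlap, against 0.198% of all. The mean was lower in co-culture for 17 of 29 probe sets and for 7 of the 10 genes, where 45.3% of all probe sets were lower. The median difference over the 10 genes was -0.22 (log2, co-culture minus MSC-only), beside 0.01 over all genes.

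Pdgfra, the receptor for which the MSCs had been sorted, ranged from 407 to 1464 signal units in co-culture with a median of 534, against 583 to 1162 with a median of 709.5 in MSC-only. The means were 725 ± 415 and 790 ± 223 units (SD, n = 6 each). The difference was -0.24 on the log2(signal + 16) scale (SE 0.30, limma adjusted p = 1.0). Pdgfrb ranged from 463 to 1280 units with a median of 590 in co-culture, against 748 to 1367 with a median of 932 in MSC-only. Its means were 756 ± 362 and 995 ± 278 units (SD, n = 6 each), a difference of -0.47 (SE 0.28, limma adjusted p = 1.0). For both receptors most co-cultures lay low, co-cultures 3 and 4 lay high, and the groups overlapped. For Pdgfra co-culture 5 (599.5 units) also lay above MSC-only 4 (582.8 units). In bulk samples such as these, fewer cells of a type and less RNA per cell cannot be told apart. The 4 co-cultures with the lowest Pdgfrb signal were below every MSC-only array.

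Prrx1 followed the receptors with a smaller spread. It ranged from 767 to 1526 units with a median of 977 in co-culture, against 962 to 1482 with a median of 1261 in MSC-only. The difference was -0.24 (SE 0.16, limma adjusted p = 1.0). Cd44 ran the other way, from 8460 to 14428 units with a median of 13079 in co-culture, against 9538 to 12904 with a median of 11248 in MSC-only. Its means were 12029 ± 2466 and 11239 ± 1332 units (SD, n = 6 each), and the difference was 0.08 (SE 0.15, limma adjusted p = 1.0). Of the 6 co-cultures 3 were above every MSC-only array in Cd44 and 2 were below every one.

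Among the adhesion and cytoskeletal members, Cdh2 ranged from 914 to 1295 units with a median of 952 in co-culture, against 1024 to 1786 with a median of 1124 in MSC-only. Its difference of -0.29 (SE 0.15) had the smallest exact permutation p of the 10 brightest probe sets (0.0952, two-sided, over all arrangements of 6 against 6 arrays, which allow 0.0022 at the smallest; limma adjusted p = 1.0). MSC-only 3 and 4 stood above all other arrays in Cdh2, at 1786 and 1507 units. Eng ranged from 318.5 to 364 units with a median of 347 in co-culture, against 242 to 441 with a median of 335 in MSC-only, a difference of 0.07 (SE 0.13). Nes ranged from 146 to 298 units with a median of 240.5 in co-culture, against 145 to 371 with a median of 239.9 in MSC-only, a difference of -0.05 (SE 0.23).

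The 3 dim markers overlapped between the groups as well. Thy1 ranged from 7.0 to 84.4 units (median 45.4) in co-culture, against 35.1 to 123.7 (median 49.5) in MSC-only. Ngfr ranged from 8.3 to 74.4 units (median 25.0) in co-culture, against 4.9 to 33.1 (median 8.75) in MSC-only. Nt5e ranged from 4.8 to 36.1 units (median 12.9) in co-culture, against 4.5 to 57.8 (median 21.6) in MSC-only. The log2 differences were -0.39 (SE 0.36) for Thy1, 0.53 (SE 0.32) for Ngfr and -0.21 (SE 0.35) for Nt5e.

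Within the arrays numbered 1, 2, 5 and 6, the PDGF receptors and Prrx1 were lower and Cd44 was higher in co-culture, without overlap of the groups. Pdgfra had 469, 407, 599.5 and 448 units in co-cultures 1, 2, 5 and 6, against 949.7, 1162, 689.8 and 625 in the MSC-only cultures of these numbers. Pdgfrb had 639, 541, 467 and 463 units in co-culture, against 1367, 1241, 762 and 748 in MSC-only. Every co-culture was below every MSC-only culture for both receptors. Prrx1 had 1002, 929, 952 and 767 units in co-culture, against 1482, 1304, 1218 and 1034 in MSC-only. Cd44 had 13589, 13658, 14428 and 12569 units in co-culture, against 10684, 9538, 10113 and 11813 in MSC-only. For Cd44 every co-culture of these numbers was thus above every MSC-only culture.

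The differences in these 8 arrays were -0.78 for Pdgfra (SE 0.22, limma adjusted p = 0.545), -0.90 for Pdgfrb (SE 0.23, adjusted p = 0.518), -0.45 for Prrx1 (SE 0.15, adjusted p = 0.636) and 0.37 for Cd44 (SE 0.12, adjusted p = 0.628). None passed the threshold in this fit over all probe sets, where 0.0178% did. The two-sided exact permutation p was 0.0286 for each of the 4, which is the smallest that the 70 arrangements of 4 against 4 arrays allow. Of the 29 probe sets 7 had no overlap, where 4.39% of all probe sets had none. Of these, 3 of Cd44 were higher (2.36% of all probe sets) and 4 of Pdgfra, Pdgfrb and Prrx1 lower (2.03% of all). The same number, 7, had an unadjusted limma p under 0.05, against 6.85% of all. The other 6 genes overlapped, with differences of 0.23 for Eng, 0.26 for Nes, -0.05 for Cdh2, -0.10 for Thy1, 0.51 for Ngfr and -0.28 for Nt5e.

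In the arrays numbered 3 and 4 the PDGF receptors and Cd44 lay the other way round. Pdgfra had 1464 and 962 units in co-cultures 3 and 4, against 729 and 583 in MSC-only 3 and 4. Pdgfrb had 1280 and 1148 units in co-culture, against 1102 and 749 in MSC-only. Cd44 had 8460 and 9471 units in co-culture, against 12380 and 12904 in MSC-only. Both co-cultures were above both MSC-only cultures for the receptors and below them for Cd44. Prrx1, with 1526 and 1167 units in co-culture against 1398 and 962 in MSC-only, overlapped. Cdh2 had 943 and 960 units in co-culture, against 1786 and 1507 in MSC-only, and Nes had 208 and 161.5 in co-culture, against 371 and 240.0 in MSC-only.

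The differences in these 4 arrays were 0.85 for Pdgfra (SE 0.29), 0.41 for Pdgfrb (SE 0.26), -0.50 for Cd44 (SE 0.19), -0.78 for Cdh2 (SE 0.20) and 0.20 for Prrx1 (SE 0.29). With 2 arrays against 2, 0 of the 29 probe sets passed at an adjusted p of 0.05, as did 0% of all probe sets, and the smallest adjusted p among the 10 brightest was 0.847, for Cdh2 (limma). The groups did not overlap in 13 of 29 probe sets, against 32.2% of all. Of the 29, 5 had no overlap in both array sets with opposite directions, against 1.44% of all, namely 1 of Pdgfra, 1 of Pdgfrb and 3 of Cd44.

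**Figure D2:**
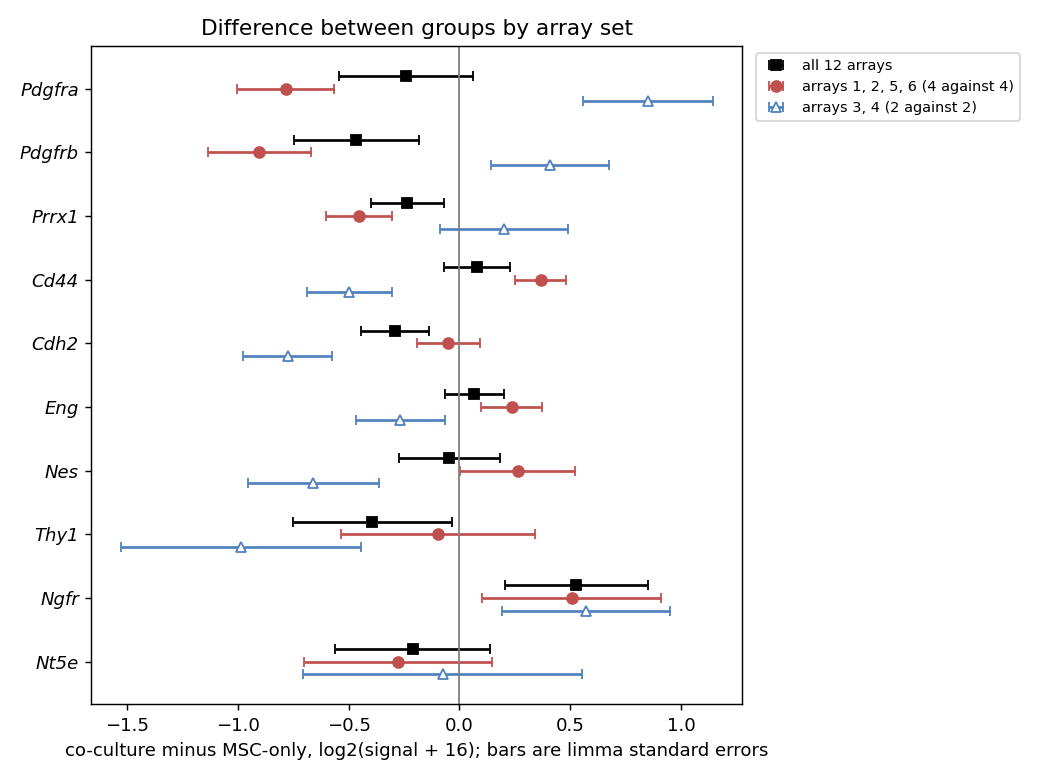
Difference co-culture minus MSC-only on the log2(signal + 16) scale (horizontal axis) for the brightest probe set of each of the 10 genes, over all 12 arrays (squares), the arrays numbered 1, 2, 5 and 6 (circles) and those numbered 3 and 4 (open triangles), with limma standard errors. For Pdgfra the circle lies at -0.78 and the triangle at 0.85, and for Cd44 they lie at 0.37 and -0.50.

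The difference between the array sets was tested as an interaction term in limma over all probe sets (the difference in arrays 3 and 4 minus that in arrays 1, 2, 5 and 6). It was 1.63 for Pdgfra (SE 0.39, unadjusted p = 0.0016, adjusted p = 0.387), 1.31 for Pdgfrb (SE 0.39, adjusted p = 0.474) and -0.86 for Cd44 (SE 0.19, adjusted p = 0.328). It was -0.72 for Cdh2 (SE 0.23, adjusted p = 0.524) and 0.65 for Prrx1 (SE 0.29, adjusted p = 0.678). None passed after adjustment, where 0.0111% of all probe sets did. At an unadjusted p under 0.05 there were 9 of 29 probe sets, against 7.36% of all. The division of the arrays rests on Xist and the Y-linked genes and not on the marker genes, and was made with earlier results of these data known.

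The other probe sets of these genes followed in part. Those of Cd44 labelled 1423760_at and 1452483_a_at had interaction terms of -0.82 (SE 0.19) and -1.07 (SE 0.24), while 1443265_at averaged 5.45 ± 4.56 units in co-culture and 2.08 ± 0.74 in MSC-only (SD, n = 6 each), above the array's median on 0 arrays. Of the 2 dimmer Pdgfra probe sets, 1438946_at differed by -0.61 in arrays 1, 2, 5 and 6 and by 0.93 in arrays 3 and 4, and 1421916_at by -0.06 and 0.54. The second Pdgfrb probe set, 1417148_at, differed by -0.74 and 0.15 in the 2 array sets. The second Cdh2 probe set, 1449244_at, lay above the array's median on all 12 arrays. It differed by 0.01 and -0.34 (SE 0.24) in these sets, with an interaction term of -0.35 (SE 0.25, limma adjusted p = 0.810). Of the 6 Prrx1 probe sets, 2 were without overlap in arrays 1, 2, 5 and 6, and 1439774_at differed there by -0.52 (SE 0.13, limma adjusted p = 0.526).

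The spread between cultures was compared on the same scale by the mean absolute deviation from the group median (exact permutation test over all arrangements of the arrays, two-sided). Pdgfra had the largest SD in co-culture among the 7 well measured genes, 0.72 against 0.37 in MSC-only, and the spreads did not separate (exact p = 0.301). Pdgfrb had SDs of 0.64 and 0.39 (exact p = 0.459), and Cd44 of 0.32 and 0.17 (exact p = 0.470), in co-culture and MSC-only. Eng was narrower in co-culture, with an SD of 0.07 against 0.31 in MSC-only (exact p = 0.0065). The 6 co-cultures lay between 318.5 and 364 units of Eng while MSC-only 2, 5 and 6 lay below and MSC-only 3 and 4 above this range. Its second probe set, 1432176_a_at, had SDs of 0.36 in co-culture and 0.26 in MSC-only (exact p = 0.597). Exact p-values under 0.05 were found for 3 of 29 probe sets (1 each of Eng, Nt5e and Nes, the last 2 dim), against 5.27% of all probe sets. Without the arrays numbered 3 and 4 there were 7, against 9.56% of all probe sets.

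By their brightest probe sets, Pdgfra, Pdgfrb and Prrx1 had positive correlations with each other and negative ones with Cd44 on either side of the first component. As the arrays form 2 clusters on it, correlations were computed within each cluster of 6 arrays, with an exact permutation over all 720 pairings (smallest p 0.0028). Each cluster holds 3 co-cultures and 3 MSC-only cultures, so that group, array set and the arrays' scaling are shared by all pairs. Pearson's r of Pdgfrb with Prrx1 was 0.96 on the positive side (exact p = 0.0056, rho = 0.83, exact p = 0.058) and 0.98 on the negative side (exact p = 0.0056, rho = 0.89, exact p = 0.033). Without the 2 arrays farthest from the median of Pdgfrb it was 0.88 and 0.98. Pdgfra with Pdgfrb gave 0.96 (exact p = 0.0028, rho = 0.94, exact p = 0.017) and 0.81 (exact p = 0.039, rho = 0.89, exact p = 0.033), and 0.86 and 0.92 without the 2 farthest arrays. Pdgfra with Prrx1 gave 0.89 (exact p = 0.0097, rho = 0.94, exact p = 0.017) and 0.87 (exact p = 0.0097, rho = 1.0, exact p = 0.0028), and 0.67 and 0.88 without them.

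The relations with Cd44 were negative. Pdgfra with Cd44 gave r = -0.95 on the positive side (exact p = 0.017, rho = -0.77, exact p = 0.103) and -0.85 on the negative side (exact p = 0.036, rho = -0.77, exact p = 0.103), and -0.60 and -0.62 without the 2 farthest arrays. Pdgfrb with Cd44 gave -0.86 (exact p = 0.044) and -0.74 (exact p = 0.101), with rho of -0.66 and -0.71 (exact p = 0.175 and 0.136). Without the 2 farthest arrays it gave -0.97 and -0.12, so that the negative side rests on those arrays. Cd44 with Prrx1 gave -0.76 (exact p = 0.078) and -0.79 (exact p = 0.072), with rho of -0.71 and -0.77 (exact p = 0.136 and 0.103). Without the 2 farthest arrays it gave -0.0036 and -0.60, so that the positive side rests on those arrays. With the mean of all probe sets of a gene in place of the brightest, the signs were the same, but on the negative side r was 0.47 for Pdgfra with Prrx1, -0.46 for Pdgfrb with Cd44 and -0.44 for Cd44 with Prrx1.

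Over the 45 pairs and both clusters, 90 relations were computed, of which 16 had an exact p under 0.05 and 0 an adjusted one. The smallest exact p that 6 arrays allow, 0.0028, cannot pass alone after adjustment over 90 relations, so this 0 was nearly fixed beforehand. The smallest adjusted p was 0.125 for r and 0.25 for rho, and the pairs named above had adjusted p-values for r from 0.125 to 0.433. The sign of r was the same in both clusters for 26 of 45 pairs, and 6 pairs, all among these 4 genes, had an r beyond 0.7 in size with the same sign in both. Nes with Pdgfra gave -0.95 on the positive side (exact p = 0.0028, rho = -0.94, exact p = 0.017) and -0.18 on the negative side (exact p = 0.771, rho = -0.09, exact p = 0.919), and -0.90 and 0.48 without the 2 farthest arrays.

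**Figure D3:**
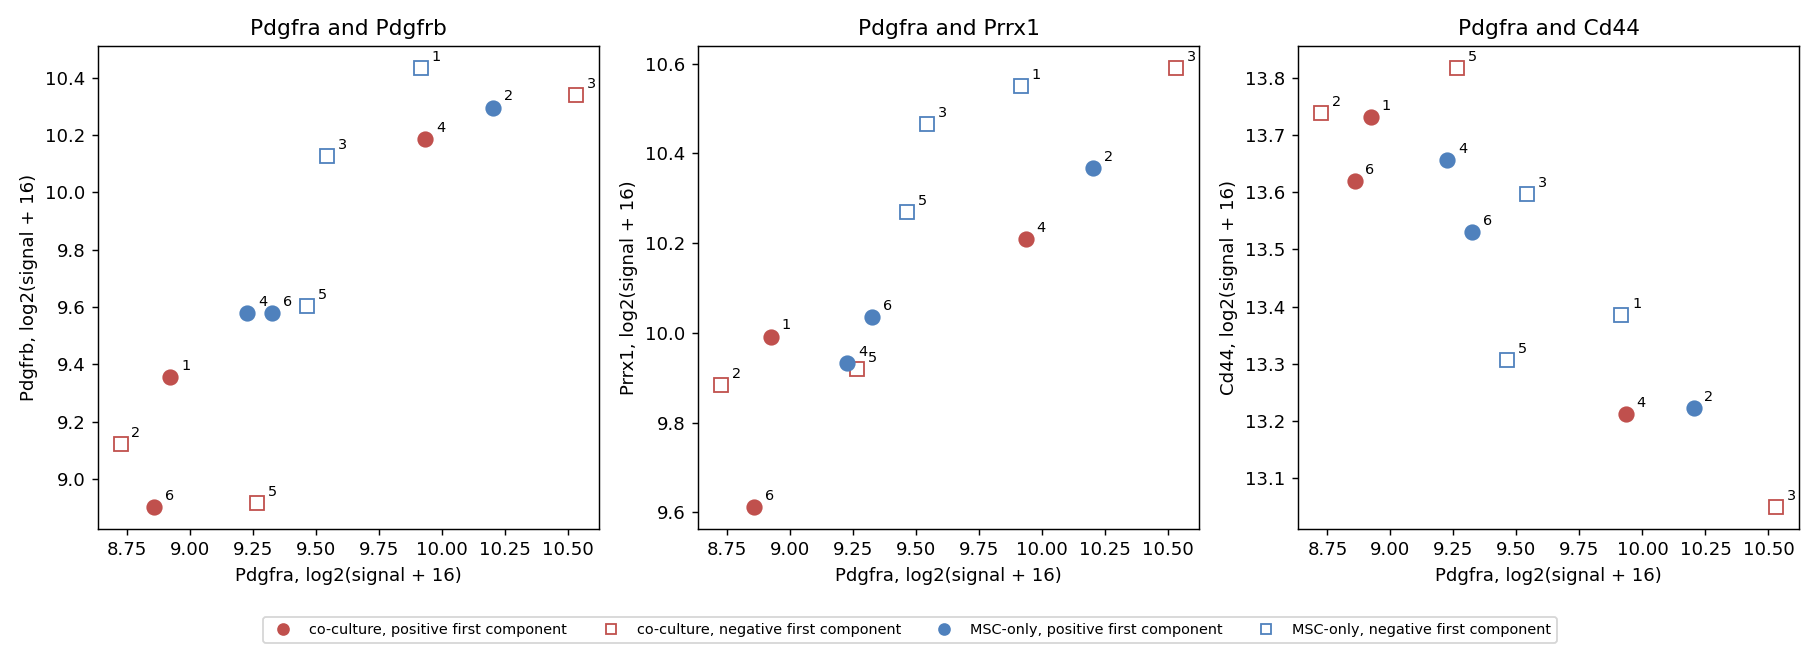
Log2(signal + 16) of Pdgfra (horizontal axes) against Pdgfrb, Prrx1 and Cd44 (vertical axes), 1 point per array with its number. Co-cultures are red and MSC-only cultures blue, filled circles and open squares are the arrays on the positive and the negative side of the first component, and co-culture 3 has the highest Pdgfra and the lowest Cd44 signal, 1464 and 8460 units.

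**Figure D4:**
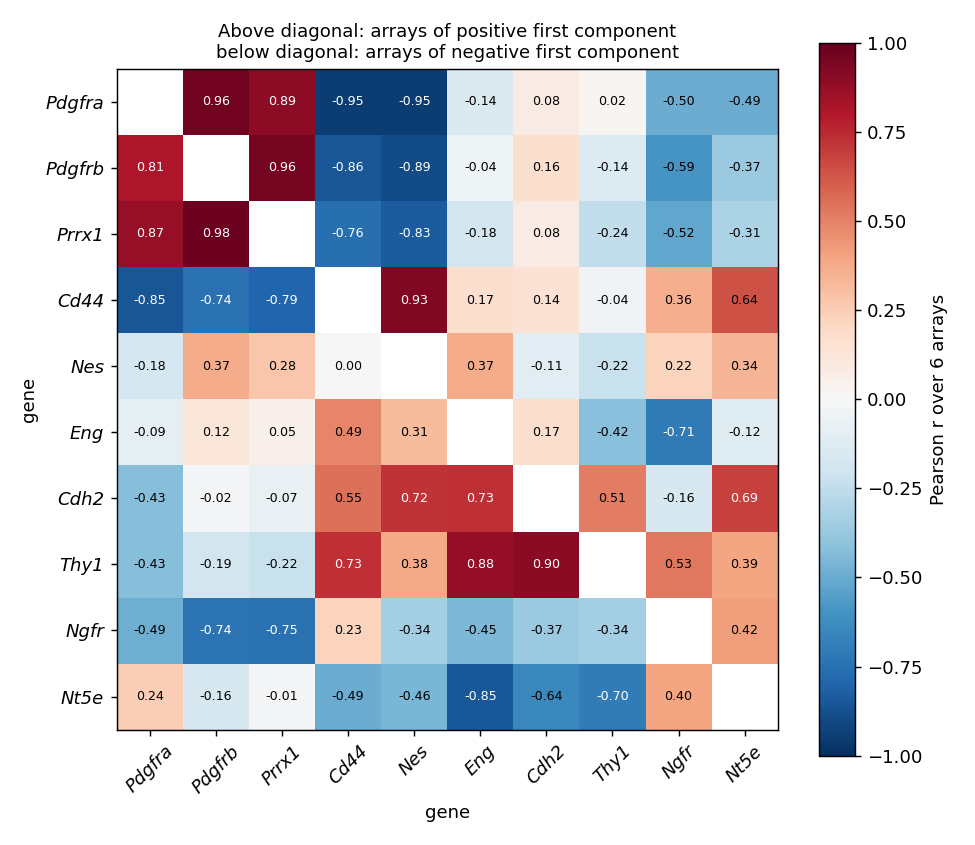
Pearson's r between the brightest probe sets of the 10 genes (both axes) over the 6 arrays on the positive side of the first component (above the diagonal) and the 6 on its negative side (below it). Pdgfra, Pdgfrb, Prrx1 and Cd44 have the same signs on both sides of the diagonal, while Nes with Pdgfra has -0.95 above and -0.18 below the diagonal.

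The genes most like each member were sought over the 12 arrays among up to 10634 genes whose mean signal was above the median of all probe sets. These r values are descriptions, as the 12 arrays fall into clusters. For Pdgfra the nearest were Itsn1 (r = 0.93), an endocytic scaffold gene, Fgf7 (0.89), a fibroblast growth factor made by mesenchymal cells, Prg4 (0.88), which encodes lubricin, Lrp6 (0.88), a Wnt co-receptor, and Ggact (0.88). Pdgfrb ranked 8th, Prrx1 25th and Cd44 10627th of 10633 in likeness to Pdgfra. For Pdgfrb the nearest were Mylk (0.98), the myosin light chain kinase, Gpc6 (0.97), a glypican, and Fgf7 (0.95). For Prrx1 they were Nedd4 (0.96), a ubiquitin ligase, Yap1 (0.95), a transcriptional co-activator, and Ptprg (0.95), a receptor phosphatase.

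Cd44 was most like Dnajb13 (0.93), F7 (0.92), which encodes coagulation factor VII, and Ube2j2 (0.91). F7 was 1 of the 2 genes other than Xist with an adjusted p under 0.05 for the difference between the array sets (-3.79, limma adjusted p = 0.029), the other being Bex1 (-3.24, adjusted p = 0.029). For Eng the nearest were Dctd (0.91), Nsun2 (0.91) and Ostc (0.90), for Nes Foxd2 (0.89), Chic1 (0.87) and Fmc1 (0.83), and for Cdh2 Akap17b (0.87), Arih1 (0.86) and Noc3l (0.85). The dim members were nearest to Rffl (0.89), Auh (0.86) and Tmcc3 (0.83) for Nt5e, Fbxo42 (0.91), Orc4 (0.88) and Hoga1 (0.87) for Thy1, and Slc25a34 (0.91), Mpc1 (0.90) and Klhl15 (0.88) for Ngfr.

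Genes that act with the markers were read from the same fit, and 0 of them passed the adjusted threshold in any list. Of 16 other surface markers of MSCs and stromal cells 7 had a higher and 9 a lower mean in co-culture, with a median of -0.0027 (0.16 in arrays 1, 2, 5 and 6 and -0.062 in arrays 3 and 4). The pericyte proteoglycan gene Cspg4 averaged 126.7 ± 28.3 units in co-culture and 91.5 ± 39.1 in MSC-only (SD, n = 6 each; 0.49, SE 0.27), and Itgb1, the integrin β subunit gene, differed by -0.19 (SE 0.10). Of 8 PDGF ligands and receptor partners 6 had a lower mean in co-culture. The ligand gene Pdgfd averaged 427 ± 238 units in co-culture and 534 ± 203 in MSC-only (SD, n = 6 each) and differed by -0.83 in arrays 1, 2, 5 and 6 and by 0.46 in arrays 3 and 4. Pdgfc differed by -0.46 and 0.75 in these sets. The medians over the 8 genes were -0.050 and 0.032. Grb2 (-0.035 and -0.12) and Ptpn11 (-0.037 and -0.051) were lower in both sets, and Pik3r1 (0.011 and 0.16) was higher in both. Of 7 genes around endoglin 4 were lower, with the receptor genes Tgfbr1 and Tgfbr2 at -0.10 each. Of 8 cadherins and catenins 4 were lower, among them Cdh11, the cadherin of mesenchymal cells (-0.28, SE 0.19), and Jup, plakoglobin (-0.65, SE 0.28, limma adjusted p = 1.0). Jup was dim, at 24.4 ± 13.4 units in co-culture and 48.1 ± 20.8 in MSC-only (SD, n = 6 each), above the array's median on 0 arrays.

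Of 8 hyaluronan and CD44 partners measured 5 were higher, among them the hyaluronan synthase gene Has1, at 65.2 ± 33.1 units in co-culture and 28.3 ± 20.8 in MSC-only (SD, n = 6 each; 0.84, SE 0.36, limma adjusted p = 1.0). Has1 lay above the array's median on 3 arrays. Of 13 mesenchymal transcription factors beside Prrx1 9 were lower, with Twist1 at 74.6 ± 23.2 units in co-culture and 115.75 ± 38.6 in MSC-only (-0.53, SE 0.21, limma adjusted p = 1.0). Of the 4 adenosine genes measured around Nt5e 3 were lower, of the 5 neurotrophin genes around Ngfr 3, and of the 6 other intermediate filament genes 2. Of 13 stromal matrix and niche genes 11 were lower and 2 higher, with a median of -0.26 beside 0.01 over all genes. This median was -0.43 in arrays 1, 2, 5 and 6 and 0.13 in arrays 3 and 4. Postn, which encodes periostin, averaged 3571 ± 717 units in co-culture and 5599 ± 1764 in MSC-only (SD, n = 6 each; -0.62, SE 0.20, limma adjusted p = 1.0). It differed by -0.90 and -0.056 in these sets. Lum went the other way, at 69.2 ± 56.4 units in co-culture and 24.8 ± 22.1 in MSC-only (SD, n = 6 each; 1.03, SE 0.40), with 0.84 and 1.40 in these sets. Lum lay above the array's median on 1 array.

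Macrophage and pan-leukocyte genes were bright in both groups, and erythroid and progenitor genes mostly were not. Ptprc, the gene of CD45, against which the MSCs had been sorted, averaged 12044 ± 387 units in co-culture and 11941 ± 1265 in MSC-only (SD, n = 6 each), above the array's median on all 12 arrays. Of 15 macrophage and monocyte genes 14 lay above the array's median on all arrays, the exception being Marco at 21.7 ± 18.9 units in co-culture and 29.1 ± 25.4 in MSC-only (SD, n = 6 each). Their summed signal was 254510 to 354204 units in co-culture and 244160 to 341124 in MSC-only. In arrays 1, 2, 5 and 6 it was 266275 to 354204 in co-culture and 275681 to 341124 in MSC-only, and in arrays 3 and 4 it was 254510 to 274602 in co-culture and 244160 to 307186 in MSC-only. Within the clusters of arrays this sum had r = -0.25 (exact p = 0.626, rho = -0.09, exact p = 0.919; -0.15 without the 2 farthest arrays) with Pdgfra on the positive side of the first component and r = -0.89 (exact p = 0.0167, rho = -0.94, exact p = 0.0167; -0.98 without the 2 farthest arrays) on the negative side, and over the 10 members and both clusters, 20 relations, the smallest adjusted p was 0.333 for r and 0.167 for rho. On the negative side Prrx1 had r = -0.80 (exact p = 0.047, rho = -0.94, exact p = 0.017), Pdgfrb -0.76 (exact p = 0.074, rho = -0.77, exact p = 0.103) and Cd44 0.73 (exact p = 0.097, rho = 0.71, exact p = 0.136) with this sum, and without the 2 farthest arrays these were -0.93, -0.89 and 0.65. On the positive side the same genes had r of 0.073, -0.20 and 0.27 (exact p from 0.594 to 0.911). The 10 pan-leukocyte genes, all above the array's median on all arrays, summed to 127489 to 160257 units in co-culture and 129174 to 155719 in MSC-only.

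Of the 7 smooth muscle and myofibroblast genes 6 were lower in co-culture (median -0.35, with -0.36 in arrays 1, 2, 5 and 6 and -0.30 in arrays 3 and 4), among them Acta2 (-0.36, SE 0.14) and Tagln (-0.47, SE 0.20), both with a limma adjusted p of 1.0. Their summed signal was 18728 to 31359 units in co-culture and 25792 to 43647 in MSC-only. The stromal matrix list, which shares Acta2 and Tagln with these, summed to 61206 to 73376 units in co-culture and 81154 to 108202 in MSC-only in arrays 1, 2, 5 and 6, and in arrays 3 and 4 to 80289 to 91169 units in co-culture and 74259 to 97105 in MSC-only. The part of these cells in the levels of the markers was not tested. Of 9 HSC and progenitor genes 2 lay above the array's median on all 12 arrays, and Cd34 averaged 52.6 ± 18.2 units in co-culture and 28.1 ± 20.2 in MSC-only (SD, n = 6 each; 0.74, SE 0.31, limma adjusted p = 1.0). Of 7 erythroid genes 1 did, while 6 had a higher and 1 a lower mean in co-culture. The hemoglobin gene Hba-a1 averaged 27.5 ± 18.2 units in co-culture and 11.35 ± 10.1 in MSC-only (SD, n = 6 each). Car2, the 1 that was lower, averaged 21.7 ± 16.4 units in co-culture and 46.8 ± 9.2 in MSC-only (SD, n = 6 each; -0.84, SE 0.26, limma adjusted p = 0.989). Hba-a1 and Car2 lay above the array's median on 0 arrays. Pecam1, the gene of CD31, and Kit were dim, at 18.5 ± 12.9 and 37.4 ± 20.0 units in co-culture and 12.2 ± 12.4 and 47.3 ± 12.3 in MSC-only (SD, n = 6 each).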

How the data were processed

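RNA of 12 cultures was hybridised to Affymetrix mouse arrays, and the authors analysed the scans with the GeneChip Operating Software. The deposited values are linear signal intensities, 1 per probe set. Their 2% trimmed mean was 496.6 to 497.3 units on every array, which shows a scaling to 1 mean; its target was not given in the sources used here. Replicates were not pooled, and depth is not defined for arrays, whose number limits the precision. The annotation gave 34945 probe sets 1 symbol, 932 several and 9160 none, and 34741 were matched to the RefSeq gene table. Only those with 1 symbol were named.

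The members and lists were chosen with earlier results of these data known. Named genes were all 10 members, from each list up to 4 genes with the smallest limma p and up to 3 with the highest signal, the genes most like each member, and the sex-linked genes; F7 and Bex1 with their interaction values, Slc23a3, Tceal7 and A730082K24Rik were added after their values had been seen. A gene stood by its probe set of highest mean. Intensities were compared as log2(signal + 16) by lmFit and eBayes of limma 3.58.1 (R 4.3.3) without block or filter, Benjamini-Hochberg adjusted over 45037 probe sets at a threshold of 0.05, and single values by exact permutation in Python 3.11.15. The comparison had been tested on simulated data with independent normal errors, which lacked the clusters of these arrays and their division by Xist. Arrays sharing a replicate number did not deviate together throughout, so the numbers were not taken as pairs. Alternatives covered scaling, the constant, a filter on dim probe sets, a replicate block, limma's trend and robust options, the methods' unpaired test and arrays left out. Sca-1 (Ly6a) and other listed genes without a probe set of a single symbol were not analysed here.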

Additional observations from a re-analysis of the deposited data

Results flagged for a closer look

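In 5 of 29 probe sets the group difference ran in opposite directions in the arrays numbered 3 and 4 and in the other 8. Co-culture and MSC-only cultures did not overlap in either set, which held for 1.44% of all probe sets. In the arrays numbered 3 and 4 alone, 32.2% of all probe sets had no overlap. The 5 were 1 of the 3 probe sets of Pdgfra, 1 of the 2 of Pdgfrb and 3 of the 4 of Cd44. The difference between the sets was 1.63 for Pdgfra, 1.31 for Pdgfrb, and -0.86, -0.82 and -1.07 for the Cd44 probe sets 1434376_at, 1423760_at and 1452483_a_at (log2, limma, adjusted p from 0.328 to 0.474). None passed the adjusted threshold. The sets differ in Xist and the Y-linked genes, whose part in these values was not tested.

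A single array stood apart in 6 of 58 groups of 6 arrays checked. About 1 in 20 is the nominal rate for such a check, and the share over all probe sets was not computed. The count therefore stands without a measured background. Nt5e 1459023_at had 38.4 units in co-culture 2, against 6.5 to 13.5 in the other co-cultures. Nt5e 1422974_at had 59.8 units in co-culture 5, against 9.9 to 17.5 in the others. Ngfr 1421241_at had 31.7 units in MSC-only 2, against 4 to 10 in the other MSC-only arrays. Ngfr 1450177_at had 6.3 units in MSC-only 5, against 2.1 to 3.4 in the others. These Nt5e and Ngfr probe sets were dim, above the array's median on 0 arrays. The Prrx1 probe sets 1432129_a_at and 1425527_at lay above it on 10 and 6 arrays. Prrx1 1432129_a_at had 179.7 units in MSC-only 3, against 97.5 to 112.3 in the other MSC-only arrays. Prrx1 1425527_at had 43.1 units in co-culture 1, against 80.4 to 89.5 in the other co-cultures.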

How the results depend on the processing

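Of 276 values of the 10 member genes under the alternatives, 263 kept their direction, 13 reversed and 0 passed the adjusted threshold (smallest adjusted p 0.518, limma). The count of kept directions includes settings that leave the difference itself unchanged and so could not turn it. These are the filter on dim probe sets, the replicate blocks, limma's trend and robust options, the unpaired test and the block of array sets. In the arrays numbered 3 and 4 alone, Pdgfra was at 0.85, Pdgfrb at 0.41, Eng at -0.27, Cd44 at -0.50 and Prrx1 at 0.20. Nes was at 0.26 without these arrays and at 0.31 on the positive side of the first component, where Ngfr was at -0.0303, and Nt5e was at 0.17 on the negative side. Leaving out 1 array at a time gave -0.0164 to 0.149 for Eng, which turned without MSC-only 5, and -0.167 to 0.0871 for Nes, which turned without co-culture 4 (0.039), co-culture 5 (0.065) or MSC-only 3 (0.0871). It gave -0.47 (without co-culture 3) to -0.11 (without co-culture 2) for Pdgfra, -0.64 to -0.35 for Pdgfrb, -0.37 to -0.0014 (without MSC-only 5) for Nt5e, -0.57 to -0.14 (without co-culture 1) for Thy1, 0.30 (without co-culture 2) to 0.68 for Ngfr, -0.36 to -0.19 (without MSC-only 3) for Cdh2, 0.021 (without co-culture 5) to 0.17 (without co-culture 3) for Cd44 and -0.35 to -0.15 (without co-culture 6) for Prrx1. With the mean of all probe sets of a gene, Pdgfra was at -0.064, Prrx1 at -0.11, Ngfr at 0.18, Nt5e at -0.034 and Nes at -0.12. The cause was not tested.

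The count of all probe sets called, 2 over the 12 arrays, was 1 with quantile normalization, median centring, 75th percentile centring, a constant of 1 and the methods' unpaired test. It was 0 with a constant of 64, probe sets above the median signal only, the replicate block, limma's trend and robust options, the array sets as block, the arrays numbered 3 and 4 alone and either side of the first component alone. It was 8 without the arrays numbered 3 and 4 (3 of Xist, Eif2s3y, Slc23a3, Tceal7, A730082K24Rik and Bex1), and from 0 to 4 with 1 array left out (0 without co-culture 3 or MSC-only 1, 4 without MSC-only 6). With the replicate number as a random block it was 2 (correlation 0.014). Arrays of the same number deviated together with correlations from -0.16 to 0.15, and under the replicate block 0 of the 29 member probe sets were called.

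Member probe sets at an unadjusted p under 0.05 numbered 0 over the 12 arrays, 1 with median centring, with limma's trend and robust options and on the positive side, 2 on the negative side (4.57% of all probe sets), 6 in the arrays numbered 3 and 4 (5.24%), 7 without them (6.85%), and 0 to 3 with 1 array left out (3 without co-culture 3, 4.86% of all). The spread count of 3 became 7 without arrays 3 and 4 (9.56% of all) and was 2 to 3 with 1 array left out. Over all probe sets the unadjusted calls, 1264 higher and 700 lower, became 918 and 1010 with quantile normalization and 893 and 1065 with median centring. The difference between the array sets kept its sign in all 95 alternatives for Pdgfra (1.33 to 1.93 with 1 array left out), Pdgfrb (1.04 to 1.59), Cd44 (-0.94 to -0.78), Cdh2 (-0.85 to -0.60) and Prrx1 (0.39 to 0.92), with 0 called. These genes were the members with an unadjusted limma p under 0.05 for this difference. Limma's trend and robust options and the first component as block could not change the sign. Of the other members, Eng, Nes and Thy1 kept their sign. Nt5e turned from 0.20 to -0.46 and Ngfr from 0.063 to -0.41 without co-culture 3. The alternatives with the arrays of each side, the arrays 3 and 4 alone and the block of array sets, and those of the difference between the sets, were chosen after seeing the data. Correlations were not computed without single arrays, without arrays 3 and 4 or within a group. The values without the 2 farthest arrays rest on fewer than 6 arrays of a cluster and have no p-value. Under the 8 alternatives that were run, 0 relations passed after adjustment. The smallest exact p that 6 arrays allow limits this count as well. Nt5e, Thy1 and Ngfr gave no value under the filter on dim probe sets. The number of arrays limits what can be told for these markers.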
